A study of Homo sapiens with 6 samples.

Results

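Vorinostat-only peaks are stretches of chromatin that carried the acetyl mark H3AcK9 in SKOV3 cells exposed to vorinostat, and in no peak list of untreated or romidepsin-exposed cells. A peak of the first vorinostat list was counted as vorinostat-only where it was at least 500 bp wide, shared at least 1 bp with a peak of at least 500 bp in the second vorinostat list, and shared no base with any untreated or romidepsin peak. The rule gave 3138 such peaks among the 146948 peaks of at least 500 bp in the first vorinostat list, a share of 2.14%. It was applied to 20 autosomes, leaving out chromosomes 13 and 21, which lack peaks in 1 or both romidepsin lists. The 5 lists together hold 3983296 peaks.

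SKOV3 is an established human ovarian carcinoma cell line, used here unmodified (wt in the labels). There were 3 conditions with 1 ChIP sample each: untreated cells, cells exposed for 24 h to vorinostat at 1x IC50, and cells exposed for 24 h to romidepsin at 1x IC50. The 3 matching input samples enter no value. The sequencing company split each treated sample in 2, which is why vorinostat and romidepsin have 2 lists each and untreated cells 1. The paper's own descriptions differ on this point, since its Reporting Summary also gives 1 split sample per drug, whereas a table footnote and a supplement description speak of independent experiments or biological replicates. The labels were followed here, so the 2 lists of a drug were not treated as replicates. Differences between conditions rest on 1 sample each, cannot be set against a spread between replicates, and are given without p-values. The members were chosen from the peak lists themselves, so their presence with vorinostat and absence elsewhere, and every value taken from the same lists, is a description and not a test.

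Histone acetylation is the balance of acetyltransferases, which write the mark, and histone deacetylases (HDACs), which remove it. Acetylation of lysine 9 on histone H3 is typical of active promoters and enhancers. Vorinostat is a hydroxamic acid that inhibits HDACs of class I and class II broadly, whereas romidepsin is a cyclic depsipeptide with a preference for the class I enzymes, so places marked with only 1 of the drugs are of interest in comparing them.

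The peak lists are in the coordinates of hg19, although the labels name hg38: peaks run past the end of the hg38 chromosome on 12 of the 20 chromosomes. All positions below are hg19 positions as deposited, counted from 1. The genome and gene annotation used were hg38 and were not joined to the peaks. Gene names, gene parts and DNA sequence of the members were therefore not analysed here, and the labelled cell type could not be checked against marker genes. The study gives sequencing depth only as an average over libraries, and the files hold no read numbers, so the depth behind each list is unknown. The lists were unlike in number of peaks, with 352674 for untreated cells on the 20 chromosomes against 851523 to 884969 for each drug list, but less so in the length covered, which was 280.0 to 325.8 Mb.

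Each step of the rule removed many peaks. Of the 146948 wide peaks of the first vorinostat list, 111817 met a wide peak of the second list. Of these, 21659 shared no base with an untreated peak, which is 19.4% and is the set called new vorinostat peaks from here on. The new vorinostat peaks were mostly seen with romidepsin too. Both romidepsin lists met 16342 of them, a share of 75.5%, which are called gained with both drugs. The first romidepsin list alone met 918 and the second alone met 1261. The remaining 3138, or 14.5%, were vorinostat-only.

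The same rule with the drugs exchanged gave more peaks. Of 176046 wide peaks of the first romidepsin list, 138963 met a wide peak of the second list, 30216 of these (21.7%) were new against untreated cells, and 5547 of these were romidepsin-only. They made up 18.4% of the new romidepsin peaks and 3.15% of the wide ones. Romidepsin-only peaks thus numbered 1.77 for each vorinostat-only peak. The romidepsin lists also held more wide peaks and covered more bases than the vorinostat lists, and how far this accounts for the difference was not tested.

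Vorinostat-only peaks were narrow. Their width had a median of 587.5 bp and ranged from 500 to 1782 bp in the first list, and the partner peaks of the second list had a median of 589 bp and ranged from 500 to 2795 bp. More than 1 in 2 lay close to the limit of the rule, with 1714 of 3138 (54.6%) under 600 bp and only 68 (2.17%) at 1000 bp or more. Peaks gained with both drugs were wider, with a median of 698 bp, 29.2% under 600 bp and 18.3% at 1000 bp or more. Romidepsin-only peaks lay between, with a median of 603 bp and 4.54% at 1000 bp or more. A wide peak has more bases on which another list can meet it, so the rule itself bears on these widths.

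Read the other way, the vorinostat-only share of new vorinostat peaks fell with each step in width. It was 23.2% from 500 to under 600 bp (exact Clopper-Pearson 95% interval 22.2 to 24.1%), 15.9% from 600 to under 700 bp (14.9 to 17.0%), 11.6% from 700 to under 800 bp (10.4 to 12.8%), 7.67% from 800 to under 1000 bp (6.79 to 8.63%), and 2.11% from 1000 bp upward (1.64 to 2.67%). These intervals, like all others given here, cover counting error only. Romidepsin-only peaks ran from 27.9% in the narrowest class to 4.96% in the widest.

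Both vorinostat lists placed most members at the same spot. The rule requires a wide partner in the second list, and both lists come from 1 split sample, so agreement is partly built in. The shares below are not given for other sets of peaks, so they do not set the members apart. All but 1 member had a single wide partner in the second list. In 1342 members (42.8%) the start and the end were identical in both lists, 2039 (65.0%) lay entirely within second-list peaks, and 3095 (98.6%) were covered to at least 50%. Where the widths differed neither list was favoured, with 895 members wider in the first and 896 wider in the second. The widths of a member in both lists had a Spearman's rho of 0.725 across the 3138 members. It was 0.671 for peaks gained with both drugs and 0.731 for romidepsin-only peaks in the romidepsin lists.

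The score that the authors deposited with each peak behaved differently. It had a median of 0.857 in the first list (0.514 to 4.66) and 0.852 in the second (0.530 to 3.72), against 0.876 and 0.868 for peaks gained with both drugs, so members and peaks gained with both drugs had like scores. The score of a member in the first list said little of its score in the second: Spearman's rho was 0.065, and 0.069 over the 1342 members with identical ends. For peaks gained with both drugs it was 0.130, and for romidepsin-only peaks 0.075. These are descriptions across peaks of lists made from a single sample. Only 297 members (9.46%) had a score of at least 1 in both lists and 3 had at least 2 in both. A supplementary sheet of the study heads the same column as a p-value, but values above 1 cannot be p-values, and no source used here states a log scale for this column. The score is therefore used only to rank peaks within a list, to describe lists and sets, and as a cutoff where stated. Whether a high score stands for a stronger peak is not known.

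**Figure D1:**
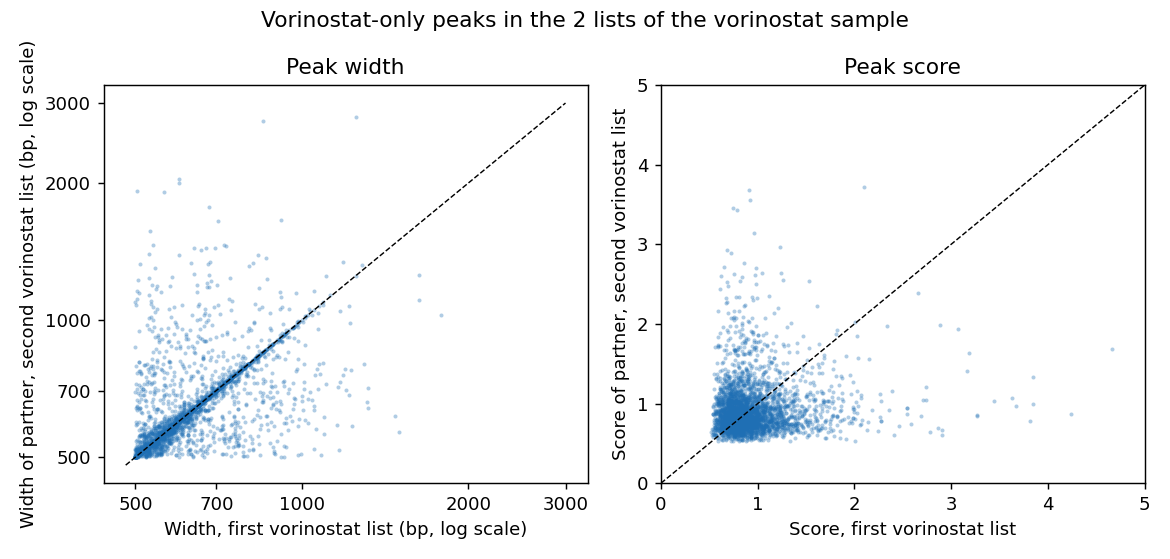
Each point is 1 of the 3138 vorinostat-only peaks, with its value in the first vorinostat list on the x axis and that of its partner in the second list on the y axis. Widths (left, bp, both axes logarithmic) gather along the dashed line of equality, with a Spearman's rho of 0.725, whereas scores (right, no unit) do not, with a rho of 0.065.

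The 5 members with the highest score in the first list each had a lower score in the second, which follows from ranking by the first list. The highest, at chr14:95840354-95840928, was 575 bp wide with identical ends in both lists, and scored 4.66 in the first and 1.68 in the second. The nearest untreated peak was 1663 bp away, and the nearest romidepsin peaks 809 and 3482 bp in the first and the second romidepsin list. The member at chr3:135877629-135878157, of 529 bp, scored 4.24 and 0.873. Romidepsin peaks ended only 24 and 39 bp from it, so a shift of its edge by as many bases would have taken it out of the set.

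The member at chr1:14802421-14802990, of 570 bp, scored 3.85 and 1.33 and had romidepsin peaks at 18 and 24 bp. The member at chr19:50517373-50517955, of 583 bp with identical ends in both lists, scored 3.84 and 0.992, with a romidepsin peak at 15 bp in both lists and an untreated peak at 229 bp. The member at chr3:171146159-171146912 was 754 bp wide, scored 3.82 and 0.776, and had romidepsin peaks at 1078 and 452 bp. Of these 5, the member on chromosome 14 and the second one on chromosome 3 had no excluding peak within 100 bp.

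The 5 widest members differed in width between the lists. The member at chr10:61730146-61731927 was 1782 bp wide in the first list, and its partner in the second list 1024 bp. The member at chr6:44499619-44501249 measured 1631 and 1259 bp. Its nearest untreated peak was 1363 bp away and its nearest romidepsin peaks 1158 and 2058 bp, and it was the only one of the 5 with no excluding peak within 1 kb. The member at chr16:72275044-72276670 measured 1627 and 1109 bp, that at chr10:43556512-43558011 measured 1500 and 568 bp, and that at chr1:48025558-48027032 measured 1475 and 615 bp. In all 5 the first list gave the larger value, which follows from ranking by that list. The second value is the width of the partner alone. All second-list peaks together covered 1562 bp of the member at chr10:61730146-61731927. They covered 715 bp of that at chr10:43556512-43558011 and 893 bp of that at chr1:48025558-48027032. For the members on chromosomes 6 and 16 the covered length equalled the partner width.

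The width limit cut through a continuous range. There were 20 members of exactly 500 bp, among them chr1:199888878-199889377, with a score of 0.848 and a partner of 500 bp, and chr1:248847510-248848009, with a score of 0.958 and a partner of 510 bp. Less than 10 bp above the limit or at it there were 225 members, and up to 10 bp below it 97 peaks met all other parts of the rule. Those parts include a second-list partner of at least 500 bp, so the width limit also bears on the count of 97. Of those just outside, chr10:12638034-12638532 and chr11:36186973-36187471 were both 1 bp narrower than the limit, with scores of 2.56 and 0.870.

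The absence of romidepsin peaks was likewise the end of a range. Averaged over both romidepsin lists, romidepsin peaks covered 0% of 3138 new vorinostat peaks, over 0 to 25% of 4843, over 25 to 50% of 5203, over 50 to 75% of 4566, over 75 to under 100% of 2884, and 100% of 1025. The median was 38.7%. Of the 21659 new vorinostat peaks, 12079 (55.8%) met no romidepsin peak of at least 500 bp. These include the 3138 members, which met no romidepsin peak of any width. The rest of the 12079 met only narrower ones.

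Most vorinostat-only peaks had a peak of another condition within a few kb. The nearest untreated peak was a median of 1459 bp away, the nearest peak of the first romidepsin list 539 bp, and that of the second 504.5 bp. The untreated list held 352674 peaks, against 884969 and 884230 in the romidepsin lists. The part of these numbers in the distances was not tested. An untreated peak lay within 1 kb of 1207 members (38.5%, interval 36.8 to 40.2%) and within 10 kb of 2861 (91.2%, 90.1 to 92.1%). A romidepsin peak of either list lay within 100 bp of 595 members (18.96%), within 1 kb of 2355 (75.05%) and within 10 kb of 3106 (98.98%). The mirrored shares, of romidepsin-only peaks with a vorinostat peak of either list, were 16.93, 81.7 and 99.93%. Members with no untreated or romidepsin peak within 1 kb numbered 613, and those with none within 10 kb numbered 17.

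By comparison, 57.5% of peaks gained with both drugs (56.8 to 58.3%) and 49.02% of romidepsin-only peaks (47.7 to 50.3%) had an untreated peak within 1 kb. The median distance to it was 789 bp and 1028 bp. Among all other wide peaks of the first vorinostat list, most of which met an untreated peak, 99.3% had one within 10 kb. A peak of the first romidepsin list lay within 1 kb of 97.9% of those other wide peaks and within 10 kb of 99.9%, against 67.5% and 97.7% of the members. Meeting a romidepsin peak was barred to the members by the rule and not to the other wide peaks. In these lists vorinostat-only peaks thus lay farther from untreated peaks than peaks gained with both drugs or romidepsin-only peaks. Every one of these sets was picked with the untreated list, so this is a description. The sets also differed in width and in untreated coverage at 10 kb from their centres. That coverage was 14.4% for members, 24.0% for peaks gained with both drugs and 23.05% for romidepsin-only peaks. The part of these differences was not tested.

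Single members show the 2 ends of this range of distances. The member at chr1:54503964-54504503 touched a peak in both romidepsin lists without sharing a base. The member at chr1:113306317-113306838 touched an untreated peak, and that at chr1:186919739-186920296 touched a peak of the first romidepsin list, with the second list 26 bp away. In all, 92 members had an excluding peak that touched them or lay within 10 bp. At the far end, the member at chr9:19597512-19598225, 714 bp wide in both vorinostat lists with scores of 0.963 and 0.566, had no excluding peak within 31083 bp. The member at chr14:40807708-40808323, of 616 bp with a partner of 594 bp, had none within 22805 bp, and the member at chr20:23733572-23734147, of 576 and 558 bp, none within 22118 bp. None of these 3 scored 1 or more in either list.

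The surroundings of the members were covered to a like degree in all lists. At 1 kb from the centre of a member, averaged over both sides, untreated peaks covered 10.7% of positions, vorinostat peaks 14.95 and 14.04%, and romidepsin peaks 13.1 and 13.7%. At 2 kb the values in the same order of lists were 13.7, 14.7, 13.9, 14.8 and 14.8%, and at 10 kb 14.4, 14.5, 14.3, 13.99 and 13.5%. From 2 kb outward the 5 lists thus lay close together. Coverage hardly changed farther out, with 14.9, 15.04, 14.3, 15.04 and 14.5% at 50 kb and 15.25% for untreated peaks at 100 kb, so the members' nearer surroundings were covered no more than the wider region. Within 10 kb on each side, the member left out, the median length covered was 2020 bases for untreated peaks, 2370 and 2361 for vorinostat and 2166 and 2146 for romidepsin. The vorinostat mean exceeded the romidepsin mean at 1712 members (54.6%) and was below it at 1424 (45.4%).

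Romidepsin-only peaks differed in this respect. At 10 kb from their centres untreated peaks covered 23.05% of positions, vorinostat peaks 21.1 and 19.9%, and romidepsin peaks 26.2 and 25.1%, so they lay in more densely covered chromatin, and romidepsin peaks covered more of it. Romidepsin covered more bases of the flanks than vorinostat at 4180 of 5547 romidepsin-only peaks (75.4%).

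Neighbouring members were a median of 381 kb apart, and 2935 of 3138 (93.5%) had no other member within 10 kb. Whether they lay closer together or farther apart than evenly placed peaks was not tested. The other 203 formed 92 pairs, 5 runs of 3 and 1 run of 4. A romidepsin-only peak lay within 10 kb of 188 members (5.99%) and within 1 kb of 31 (0.988%). A peak gained with both drugs lay within 10 kb of 569 members (18.1%). That set is larger, with 16342 peaks against 5547, so the shares do not show that either kind lay nearer to the members.

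The run of 4 members spans 10583 bp at chr15:78027781-78038363. Untreated peaks covered 600 bp of it, vorinostat peaks 4815 and 4932 bp, and romidepsin peaks 1188 and 505 bp. The scores of its members in the first list were 0.802 to 1.08. The run at chr2:71809429-71817626 held 3 members in 8198 bp, with 1980 bp covered in untreated cells, 3213 and 2996 bp with vorinostat, and 772 and 494 bp with romidepsin. Here romidepsin lists covered fewer bases than the untreated list, whereas the vorinostat lists covered more.

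At chr3:53724014-53737723, 3 members lay in 13710 bp, of which 1320 bp were covered in untreated cells, 4622 and 4619 bp with vorinostat, and 1308 and 1448 bp with romidepsin. The runs at chr1:184622405-184636162, chr12:31118159-31132592 and chr7:42954569-42966808 held 3 members each. The bases covered there were 1054, 2612 and 1646 in untreated cells, 2093, 5561 and 3033 in the first vorinostat list, and 286, 2361 and 1653 in the first romidepsin list. In all 6 runs both vorinostat lists covered more bases than the other 3 lists, and the members themselves account for part of that by the rule.

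Of the 2598 windows of 1 Mb with any peak, 1526 held at least 1 member, 681 held exactly 1, and 83 held 5 or more. No window held more than 9, whereas romidepsin-only peaks reached 40 in a window. Windows with 9 members were found at chr3:14000001-15000000, chr22:27000001-28000000, chr3:10000001-11000000, chr9:101000001-102000000 and chr10:80000001-81000000, the first 3 of these holding the most new vorinostat peaks. The window at chr3:14000001-15000000 also held 44 peaks gained with both drugs and 12 romidepsin-only peaks. The one at chr22:27000001-28000000 was poor in untreated coverage, with 66.8 kb, against 159 and 157 kb with vorinostat and 135 and 139 kb with romidepsin. In the window at chr3:10000001-11000000, where untreated peaks covered 244 kb, there were 13 peaks gained with both drugs and 1 romidepsin-only peak.

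The number of members in a window had a Spearman's rho of 0.339 with the bases covered in untreated cells, against 0.663 for romidepsin-only peaks, over 2598 windows. With peaks gained with both drugs the rho was 0.419 for members and 0.671 for romidepsin-only peaks, and with all new peaks of the own drug it was 0.565 and 0.803. The rho of members with romidepsin-only peaks was 0.328. Members are the smaller set, and the part of set size in these values was not tested. These are descriptions, since all counts come from the same libraries and windows differ in how much of them can be mapped.

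With the windows sorted by untreated coverage into 4 equal classes, the share of new vorinostat peaks that were vorinostat-only fell from class to class. It was 30.6% in the class with the lowest coverage (27.4 to 33.8%), 22.3% in the second (20.9 to 23.7%), 16.4% in the third (15.5 to 17.2%) and 9.49% in the highest (8.94 to 10.1%). The romidepsin-only share of new romidepsin peaks also fell, through 26.9%, 22.9%, 20.2% and 16.2%. The interval of the romidepsin-only share was 23.6 to 30.4% in the lowest class and 15.6 to 16.7% in the highest. These intervals cover counting error only and do not compare the drugs, each of which is 1 sample. For each vorinostat-only peak there were 0.741 romidepsin-only peaks in the lowest class, 1.05 and 1.56 in the middle classes and 2.80 in the highest. The highest class held 31.6% of the vorinostat-only peaks and 50.1% of the romidepsin-only peaks.

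The excluding lists covered more bases in each next class, and the rule drops a peak that meets any of them. Averaged over both lists of a drug, romidepsin peaks covered 8.528, 34.79, 84.02 and 187.6 Mb from the lowest to the highest class. Vorinostat peaks covered 11.45, 36.99, 79.17 and 158.7 Mb. The part of this in the falling shares was not tested. The ratio of covered bases between the drugs also rose from class to class. Romidepsin peaks covered 0.745 times as many bases as vorinostat peaks in the lowest class, 0.941 and 1.06 times in the middle classes, and 1.18 times in the highest. The part of this shift in the single-drug counts was not tested. Without chromosome 19 the ratio of romidepsin-only to vorinostat-only peaks still ran from 0.744 to 2.57.

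Chromosome 19 stood at the low end for vorinostat-only peaks. It held 40 of them among 904 new vorinostat peaks, a share of 4.42% (3.18 to 5.98%), whereas the other 19 chromosomes together had 14.9% (14.4 to 15.4%). The next lowest was chromosome 20 with 74 of 855, or 8.65% (6.86 to 10.7%), followed by chromosome 17 with 98 of 952, or 10.3% (8.44 to 12.4%). The highest shares were on chromosome 14, with 120 of 602 or 19.9% (16.8 to 23.4%), chromosome 4, with 201 of 1023 or 19.6% (17.2 to 22.2%), and chromosome 7, with 213 of 1123 or 18.97% (16.7 to 21.4%). The intervals of these 3 overlap, so their order is not resolved by counting error.

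For romidepsin, chromosome 19 was not low to the same degree. It held 315 romidepsin-only peaks among 2113 new romidepsin peaks, 14.9% (13.4 to 16.5%), within the range of 12.5 to 25.6% over the 20 chromosomes. There were 7.88 romidepsin-only peaks for each vorinostat-only peak on chromosome 19, between 1.38 (chromosome 9) and 2.48 (chromosome 17) on the others, and 1.69 over the other 19 together. Per 10 Mb up to the last peak, chromosome 19 held 6.77 vorinostat-only and 53.3 romidepsin-only peaks. It was also the chromosome with the densest untreated coverage, 29.05% of that length, against 7.25% on chromosome 4 and 18.6% on chromosome 20. Chromosome 19 is known for its high gene density and its clusters of zinc finger genes.

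The romidepsin lists covered more of chromosome 19 altogether, 20.4 and 19.4 Mb against 15.7 and 14.6 Mb with vorinostat, a ratio of 1.31, while this ratio was 1.09 on chromosome 1 and 1.03 on chromosome 4. The part of this excess in the single-drug counts was not tested. Under 5 other forms of the rule the ratio was likewise higher on chromosome 19. It was 7.43 when starting from the second list of each drug, 8.29 for peaks with a score of at least 1, 6.64 when excluding peaks under 200 bp were ignored, 3.71 with a minimum width of 300 bp and 10.0 with no excluding peak within 1 kb, against 1.70, 1.48, 1.64, 1.31 and 1.07 on the other chromosomes. The last of these rests on 3 vorinostat-only peaks on chromosome 19, and a minimum width of 1000 bp left 1. These forms were compared by chromosome after the data had been seen.

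Human endogenous retroviruses (HERVs) are remnants of ancient retroviral insertions and were the subject of the study. No vorinostat-only peak lay inside any of the 80 HERV loci that the study lists with diffpeaks, that is differential peaks, on the 20 chromosomes. A count of 0 among 3138 members allows a share of up to 0.0956%. Of all 21659 new vorinostat peaks 2 (0.00923%) shared a base with a locus, and of all 146948 wide ones 161 (0.110%), so with so few new peaks in the loci the 0 says nothing about the members. Those loci were selected by the study on these same samples, each with a peak of untreated and a peak of treated cells beside it in the study's list, so they are not an independent set. The nearest member was a median of 263 kb from a locus. A member lay within 10 kb of 3 loci and within 50 kb of 6. For the larger sets, 2 loci held a romidepsin-only peak and 2 a peak gained with both drugs, and 16 and 48 loci had one within 50 kb, the part of set size not being tested.

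The loci with a member nearby are the only places where a gene can be named, because the study gives them in both builds. The HERVS locus 6028 at chr1:118357995-118364485 had the closest member, 2816 bp beyond its end, at chr1:118367302-118368556. This member was 1255 bp wide in the first vorinostat list and met a peak of 2795 bp in the second, the widest partner of any member. It lay 207 bp from an untreated peak, and 63 and 56 bp from romidepsin peaks. In hg38 the locus is outside any protein-coding gene and 41621 bp from GDAP2.

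The HERVH locus 3788 at chr12:48503076-48509227 had a member of 599 bp at a distance of 9032 bp, with scores of 0.665 and 0.784. The locus overlaps PFKM in hg38, the gene of the muscle form of phosphofructokinase, an enzyme of glycolysis. The HERVH locus 2909 at chr8:98187250-98192981 had a member of 571 bp at 9352 bp, and its nearest protein-coding gene in hg38 is CPQ, at 25367 bp. The HERVH locus 4442 at chr17:32510526-32519699 had a member of 501 bp, 1 bp wider than the limit, at 15872 bp, and lies 8542 bp from ASIC2, which codes for an acid-sensing ion channel. The HERVIP locus 4215 at chr14:93088762-93095953 overlaps RIN3 in hg38, which codes for a Rab5 exchange factor of the endocytic pathway. Its nearest member, 29114 bp away, was 537 and 670 bp wide, with scores of 1.16 and 1.11. The sixth, the HARLEQUIN locus 4376 at chr16:34849284-34855710, had a member of 749 bp at 42940 bp, with scores of 0.969 and 0.763, and no protein-coding gene within 1 Mb in hg38. Of these 6 members, that near locus 4215 alone had a score of at least 1 in both lists. The genes are given for the loci only, and whether a member lies in the same gene was not analysed here.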

How the data were processed

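H3AcK9 ChIP-seq of SKOV3 cells was analysed from the 5 deposited peak lists of 3 ChIP samples. Read filtering by the authors used SOAPnuke. For alignment they name SOAPaligner, SOAP2 and BWA, and for peak calling MACS 1.4.2, and the last pair also stands in the submitters' processing notes. Drosophila spike-in chromatin was added, and its use in processing is not given in the sources used here. The authors deposited start, end and a score for each peak, the scale of the score not being given.

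Python 3.11.15 served for overlaps, distances and covered bases (NumPy 2.4.6, SciPy 1.17.1 and pandas 2.3.3), with plots by Matplotlib 3.10.9. The code for overlaps was tested on simulated data, where all 200 planted peaks were recovered, and was checked against bedtools 2.31.1, with identical results. Named regions were the 5 highest in score, the 5 widest, the 3 nearest to and the 3 farthest from an excluding peak, 2 on each side of the width limit and the 3 densest 1 Mb windows. Windows tied with these, the runs of members, chromosomes and the loci with genes were chosen after their values were seen. The members and all lists were chosen with earlier results of these data known. The fixed gene lists and motifs were not used here, since they need an hg19 annotation and genome. With 1 sample per condition no test was run.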

Additional observations from a re-analysis of the deposited data

How the results depend on the processing

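The number of vorinostat-only peaks depended mostly on how narrow a peak may be. It was 3138 by the rule, 20891 with a minimum width of 300 bp and 24 with 1000 bp, 7108 when the second vorinostat list was not required, 6542 when excluding peaks under 200 bp were ignored, 613 with no excluding peak within 1 kb, and 912 for a score of at least 1. In that order, the share of wide vorinostat peaks, 2.14% by the rule, was 7.37, 0.0483, 4.84, 4.45, 0.417 and 2.00%. It was 2.26% when starting from the second list, and 2.99 and 2.76% with the first or the second romidepsin list alone. After seeing the data, joining excluding peaks across gaps of up to 1000 bp and leaving out chromosome 19 were added, which gave 1.99 and 2.25%. The share of members within 10 kb of an untreated peak, 91.2% by the rule, was 95.8% with a minimum width of 1000 bp, 92.8 and 92.4% with the first or the second romidepsin list alone, 93.9% when excluding peaks under 200 bp were ignored and 78.1% with none within 1 kb. In the other settings the number moved by less than 1.5 times and both shares stayed within the intervals of the rule's values. The share of members near a transcription start was not run, since no hg19 annotation was used. No paired analysis was possible because each condition has 1 sample. Reads per list are unknown, so a missing peak does not show that the mark was absent.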
